A study of Mus musculus with 19 samples.

Results

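Hox genes encode homeodomain transcription factors that lie side by side in clusters on 4 mouse chromosomes. The genes analysed here were chosen by symbol alone, as every gene named Hox, a cluster letter from a to d and a number: 39 of the 41388 genes in the count tables. Of these, 11 belong to the Hoxa cluster, 10 to Hoxb, 9 to Hoxc and 9 to Hoxd. Genes that carry the same number in different clusters form a paralog group, and 15 genes fell in groups 1 to 5, 12 in groups 6 to 9 and 12 in groups 10 to 13.

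The order of the genes along a cluster follows the order of their domains along the body axis, a property known as colinearity. In the developing nervous system, genes of the low-numbered groups have their anterior limits at successive segments (rhombomeres) of the hindbrain, and those of higher-numbered groups at successive levels of the spinal cord. Forebrain and midbrain express none of them, retinoic acid and Cdx proteins switch them on in the embryo, and Polycomb proteins keep them silent elsewhere.

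RNA-seq libraries were made from single whole brains of FVB embryos at 13.5 days post coitum (E13.5) and from single cerebellums of adult FVB males at 56 days post partum. The male E13.5 brains comprised 3 *Wiz+/+* and 3 *Wiz MommeD30/+* samples, the female E13.5 brains 2 of each genotype and the cerebellums 3 of each genotype. MommeD30 is a null allele of *Wiz*, a zinc finger gene whose protein joins the G9a/GLP histone methyltransferase complex. It arose in an ENU mutagenesis screen as a base deletion that shifts the reading frame, and it is carried on an inbred FVB/NJ line, Line3, whose mice of every genotype are homozygous for a multicopy GFP transgene under human α-globin promoter elements. The embryos came from crosses between heterozygous parents. Libraries were taken from *Wiz+/+* animals and from animals heterozygous for the allele, so no sample lacked *Wiz* altogether. The sources used here do not say at which level the brain was cut from the spinal cord.

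Between 16386029 and 50459755 reads were counted per brain and between 28365687 and 30856484 per cerebellum. Levels are given in counts-per-million units (CPM), the reads of a gene scaled to the sum of all counts in that library. *Wiz* itself measured 182, 200 and 188 CPM in the male *Wiz+/+* brains and 118, 126 and 123 CPM in the male *Wiz MommeD30/+* brains. It measured 186 and 195 CPM against 130 and 127 CPM in the female brains, and 95.4, 95.5 and 95.4 CPM against 67.6, 66.6 and 67.7 CPM in the cerebellums, so every library matched its genotype label. The forebrain list of 12 genes summed to between 539 and 945 CPM in the brains and to at most 1.57 CPM in the cerebellums, and the cerebellar neuron list of 11 genes to between 528 and 631 CPM in the brains and at least 7690 CPM in the cerebellums.

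The Hoxa cluster spans chr6:52155590-52260880 on the minus strand, Hoxb chr11:96194316-96368256, Hoxc chr15:102921103-103036852 and Hoxd chr2:74668310-74765142, all on the plus strand (GRCm38). Paralogs resemble each other most in the homeobox, the 180 bases that encode the DNA-binding domain. The homeoboxes of group 8 are printed because this group held both the most abundant Hox gene of the E13.5 brain, *Hoxb8*, and the one that differed most between brains, *Hoxc8*. Each lies within 1 exon, at chr11:96284174-96284353 for *Hoxb8*, chr15:102992571-102992750 for *Hoxc8* and chr2:74706525-74706704 for *Hoxd8*. They are from the GENCODE M21 transcripts, 5′ to 3′, with capitals at every position where at least 1 of the other paralogs has another base.
Hoxb8: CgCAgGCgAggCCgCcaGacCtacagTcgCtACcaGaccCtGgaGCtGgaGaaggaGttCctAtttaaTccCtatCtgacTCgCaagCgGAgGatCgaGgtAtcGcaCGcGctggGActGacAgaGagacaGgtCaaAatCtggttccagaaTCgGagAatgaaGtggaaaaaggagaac
Hoxc8: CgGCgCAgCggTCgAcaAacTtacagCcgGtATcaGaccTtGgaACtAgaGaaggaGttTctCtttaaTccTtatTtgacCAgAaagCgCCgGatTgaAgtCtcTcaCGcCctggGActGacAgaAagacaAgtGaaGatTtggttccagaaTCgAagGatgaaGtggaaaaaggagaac
Hoxd8: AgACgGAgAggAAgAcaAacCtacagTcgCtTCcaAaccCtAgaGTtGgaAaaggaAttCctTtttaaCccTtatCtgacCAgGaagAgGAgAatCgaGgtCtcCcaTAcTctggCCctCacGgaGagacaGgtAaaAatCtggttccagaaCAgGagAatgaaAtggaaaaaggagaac

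*Hoxb8* shared 80% of homeobox bases with *Hoxc8* and 80.6% with *Hoxd8*, and *Hoxc8* shared 73.3% with *Hoxd8*. Over all 39 homeoboxes, pairs within a paralog group were identical at 67.2% to 93.9% of bases, with a median of 80.6% over 42 pairs, against a median of 60.6% over 699 pairs from different groups. The longest run of bases common to transcripts of 2 Hox genes that share no exon was 52 bases, shorter than the 100-base reads. Reads over exons that 2 genes share are a separate matter, and how they were assigned is not given in the sources used here. *Hoxd3* shared 62.3% and *Hoxd4* 52.3% of their exon bases with each other or with *Gm28230* on the same strand, and *Hoxb3* shared 52.9% with its antisense neighbour *Hoxb3os*, so the values of these genes are uncertain in their split.

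Promoters of 22 of the 39 genes, in 24 entries, were matched in RefSeq sequence tables (GRCm38.p6), from 250 bases before to 50 bases after the start of transcription. Those of *Hoxa7* and *Hoxb8* are shown beside that of *Hoxa5*, a gene of the same cluster as *Hoxa7* that differed by 1.43-fold between brains. *Hoxa7* and *Hoxb8* had their 4 lowest levels in the same 4 brains. *Hoxa9*, *Hoxb9*, *Hoxc6* and *Hoxc8* were lowest in these 4 brains too, so the trait is not particular to the genes printed. *Hoxa5* lies at chr6:52204538-52204837 and *Hoxa7* at chr6:52218524-52218823, both on the minus strand, and *Hoxb8* at chr11:96281655-96281954 on the plus strand. Capitals mark TTTATG, the hexamer that Cdx proteins bind, and AGGTCA, a hexamer that retinoic acid receptors and other nuclear receptors bind, searched on both strands. The 2 hexamers do not overlap in these windows.
Hoxa5: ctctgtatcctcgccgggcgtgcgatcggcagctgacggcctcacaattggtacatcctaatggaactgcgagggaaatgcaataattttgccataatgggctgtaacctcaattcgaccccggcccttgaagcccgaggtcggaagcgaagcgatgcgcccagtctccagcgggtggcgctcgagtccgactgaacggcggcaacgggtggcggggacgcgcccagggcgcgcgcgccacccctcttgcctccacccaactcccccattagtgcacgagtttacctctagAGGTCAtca
Hoxa7: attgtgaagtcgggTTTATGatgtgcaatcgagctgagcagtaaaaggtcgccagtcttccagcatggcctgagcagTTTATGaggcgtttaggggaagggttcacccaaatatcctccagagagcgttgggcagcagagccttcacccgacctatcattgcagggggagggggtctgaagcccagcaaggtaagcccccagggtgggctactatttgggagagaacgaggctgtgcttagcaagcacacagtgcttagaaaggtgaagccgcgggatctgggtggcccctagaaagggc
Hoxb8: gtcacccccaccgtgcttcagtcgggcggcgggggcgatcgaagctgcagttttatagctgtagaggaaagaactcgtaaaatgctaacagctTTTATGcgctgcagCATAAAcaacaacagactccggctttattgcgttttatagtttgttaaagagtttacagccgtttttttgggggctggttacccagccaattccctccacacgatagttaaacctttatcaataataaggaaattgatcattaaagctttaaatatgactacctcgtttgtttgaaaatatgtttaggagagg

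TTTATG was found in 11.9% of 32851 mouse promoters and in 5 of the 24 Hox entries, those of *Hoxa7*, *Hoxb8*, *Hoxd3*, *Hoxd4* and *Hoxd11*, with 2 matches each in *Hoxa7* and *Hoxb8*. AGGTCA was found in 16.3% of all promoters and in 7 Hox entries, with 1 match in *Hoxa5*. These matches are a description of the letters in the windows, and their bearing on the variation between brains was not tested.

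In the E13.5 brain, Hox genes differed both in level and in how far they varied between brains. Of the 39 genes, 22 had more than 3 counts in all 10 brains, 28 in at least 1, and 9 had no count in any of the 16 libraries. Genes of groups 2 to 5 differed by at most 1.97-fold between brains, genes of groups 6 to 9 by up to 348-fold (*Hoxc8*, with its lowest brain set at 3 counts), and genes of groups 10 to 13 were at or near 0.

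**Figure D1:**
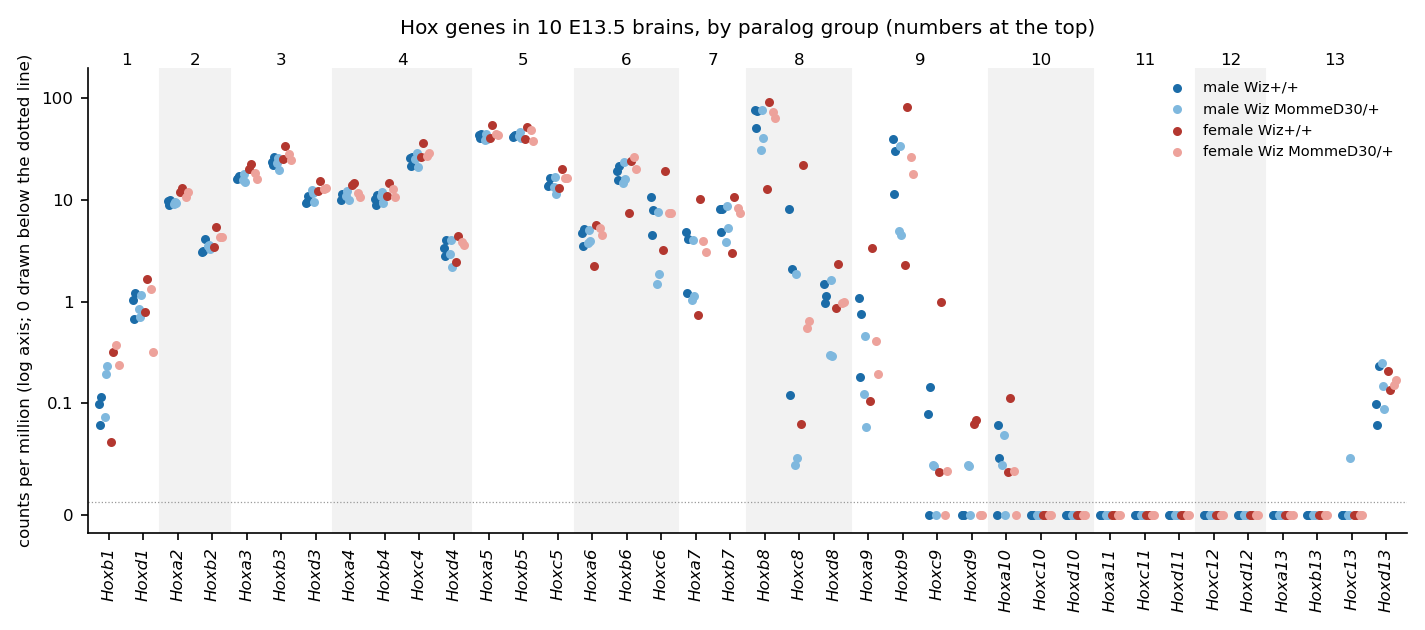
Level of Hox genes in each of the 10 E13.5 brains, in CPM on a log axis, with genes ordered by paralog group and points coloured by sex and Wiz genotype. Points of groups 2 to 5 lie close together, those of groups 6 to 9 spread widely, with Hoxc8 from 0.0248 to 22 CPM, and most genes of groups 10 to 13 lie at 0.

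The genes of group 1, which act earliest in the hindbrain, were low. *Hoxb1*, which gives a rhombomere of the middle hindbrain its identity, ranged from 0.0421 to 0.373 CPM and had more than 3 counts in 7 brains. *Hoxd1* ranged from 0.323 to 1.68 CPM.

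Group 2 holds the Hox genes with the most anterior limit of expression. *Hoxa2*, the selector of the second pharyngeal arch, measured 9.75, 8.91 and 10.1 CPM in the male *Wiz+/+* brains, 9.1, 9.48 and 9.27 in the male *Wiz MommeD30/+* brains, 11.9 and 13.2 in the female *Wiz+/+* brains and 10.7 and 11.9 in the female *Wiz MommeD30/+* brains. The highest brain was 1.48 times the lowest, and every female brain was above every male brain. Its paralog *Hoxb2* ranged from 3.09 to 5.5 CPM.

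Of the genes of groups 3 to 5, only *Hoxd4* had a median below those of both group 2 genes, 9.94 CPM for *Hoxa2* and 3.54 for *Hoxb2*. Medians over the brains were 16.9 CPM for *Hoxa3*, 25.2 for *Hoxb3* and 12 for *Hoxd3* in group 3, and 11.2 for *Hoxa4*, 10.9 for *Hoxb4*, 26.5 for *Hoxc4* and 3.51 for *Hoxd4* in group 4. In group 5, *Hoxa5*, a gene of the caudal hindbrain and cervical cord that phrenic motor neurons require together with *Hoxc5*, measured 43.7, 41.2 and 44.4 CPM in the male *Wiz+/+* brains, 38.6, 44.7 and 39.6 in the male *Wiz MommeD30/+* brains, 40.4 and 55.3 in the female *Wiz+/+* brains and 44.6 and 43.9 in the female *Wiz MommeD30/+* brains. Apart from the second female *Wiz+/+* brain, which was high, the 4 groups overlapped. *Hoxb5* ranged from 38.1 to 52.3 CPM and *Hoxc5* from 11.6 to 20.3 CPM. Among the 14 genes of groups 1 to 5 with more than 3 counts in every brain, the highest brain was between 1.37 and 5.21 times the lowest, with a median of 1.67.

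Beyond group 5 the brains parted. *Hoxb8*, expressed in the cord and the caudal medulla, measured 76.9, 50.8 and 75.2 CPM in the male *Wiz+/+* brains, 30.8, 76.2 and 40.8 in the male *Wiz MommeD30/+* brains, 12.8 and 92.8 in the female *Wiz+/+* brains and 73 and 64.3 in the female *Wiz MommeD30/+* brains. The female *Wiz+/+* brains held both the lowest and the highest value, 7.26-fold apart. Its neighbour *Hoxb9* measured 39.7, 11.5 and 30.4 CPM, 5.01, 33.8 and 4.56 CPM, 2.29 and 82.4 CPM, and 26.8 and 17.9 CPM in the same 4 groups in turn. The same brains were low and high as for *Hoxb8*, now 35.9-fold apart.

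The widest range was that of *Hoxc8*. This gene, which specifies motor pools of the cervical and thoracic cord, measured 8.16, 0.122 and 2.09 CPM in the male *Wiz+/+* brains, 0.0248, 1.88 and 0.0293 in the male *Wiz MommeD30/+* brains, 0.0632 and 22 in the female *Wiz+/+* brains and 0.548 and 0.645 in the female *Wiz MommeD30/+* brains. In counts this was 968 in the second female *Wiz+/+* brain against 3 in the first, and 1, 77 and 1 in the male *Wiz MommeD30/+* brains. It was over 3 counts in 6 of the 10 brains and at 1 to 3 counts in the others, where its level is poorly determined. *Hoxc6*, a gene of the forelimb-level cord, ranged from 1.51 to 19.4 CPM, and *Hoxc9*, which sets the thoracic motor columns, had 44 counts in the second female *Wiz+/+* brain and 0 to 5 in the rest.

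In the Hoxa cluster, *Hoxa6* ranged from 2.25 to 5.75 CPM, *Hoxa7* from 0.737 to 10.2 CPM and *Hoxa9* from 0.0585 to 3.41 CPM, with 150 counts of *Hoxa9* in the second female *Wiz+/+* brain and 2 in the third male *Wiz MommeD30/+* brain. Of the Hoxd genes in these groups, *Hoxd8* ranged from 0.293 to 2.34 CPM and *Hoxd9* had at most 3 counts. Of the 9 genes of groups 6 to 9 with more than 3 counts in at least 7 brains, 8 were highest in the second female *Wiz+/+* brain, and 6 were lowest in the first female *Wiz+/+* brain.

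Summed over the 12 genes of groups 6 to 9, the second female *Wiz+/+* brain had 274 CPM and the first 32.8 CPM. The male *Wiz+/+* brains had 175, 93.4 and 157 CPM, the male *Wiz MommeD30/+* brains 61.2, 163 and 74.2 CPM and the female *Wiz MommeD30/+* brains 153 and 127 CPM. Over the 15 genes of groups 1 to 5 the range was 194 to 292 CPM. The highest brain was thus 8.35 times the lowest for groups 6 to 9 and 1.51 times for groups 1 to 5.

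Among the genes of groups 10 to 13, *Hoxc10*, *Hoxd10*, *Hoxa11*, *Hoxc11*, *Hoxd11*, *Hoxc12*, *Hoxd12*, *Hoxa13* and *Hoxb13* had no count in any library, which over the 10 brains together allows up to 0.00749 CPM. *Hoxa10* had 0 to 5 counts and *Hoxc13* 1 count in all. *Hoxd13*, a gene of digits and genitalia at the far end of its cluster, was the exception, with 1 to 10 counts in every brain and 64 in all.

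Levels of different genes were compared per kilobase of exon, as RPKM, which is CPM divided by the exon length in kilobases. *Hoxb8* was highest, with a median of 26.1 RPKM over the brains, followed by *Hoxa5* at 23.3, *Hoxb5* at 15.3, *Hoxc4* at 10.3 and *Hoxb6* at 10.1. *Hoxb8* ran from 4.85 to 35.2 RPKM and so overlapped each of the others, while *Hoxa5*, from 20.6 to 29.5, lay above *Hoxb5*, from 13.7 to 18.8, in every brain. *Hoxc4* and *Hoxb6* overlapped. Within group 8, the medians of *Hoxc8* and *Hoxd8* were 0.211 and 0.358 RPKM. The same 5 genes led when the longest transcript was used as the length.

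The spread between brains of the same sex and genotype was measured as edgeR's tagwise biological coefficient of variation, the part of the variation that exceeds counting error. Its median was 0.0579 over the 17332 genes tested, 0.105 over the 15 Hox genes of groups 1 to 5 and 0.475 over the 10 tested genes of groups 6 to 9. *Hoxc8*, at 1.21, ranked 1 among all genes, *Hoxb9* (0.751) ranked 3, *Hoxa9* (0.737) ranked 4 and *Hoxa7* (0.604) ranked 9, and 7 Hox genes were among the 100 most variable. At the other end, *Hoxa2* (0.0602), *Hoxa4* (0.0648) and *Hoxa3* (0.066) varied about as much as the median gene. The 25 Hox genes had a median of 0.186, and this value fell to 0.118 without the first and to 0.121 without the second female *Wiz+/+* brain. For groups 6 to 9 the median stayed between 0.388 and 0.5 whichever brain was left out, and *Hoxc8* ranked 1 each time.

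**Figure D2:**
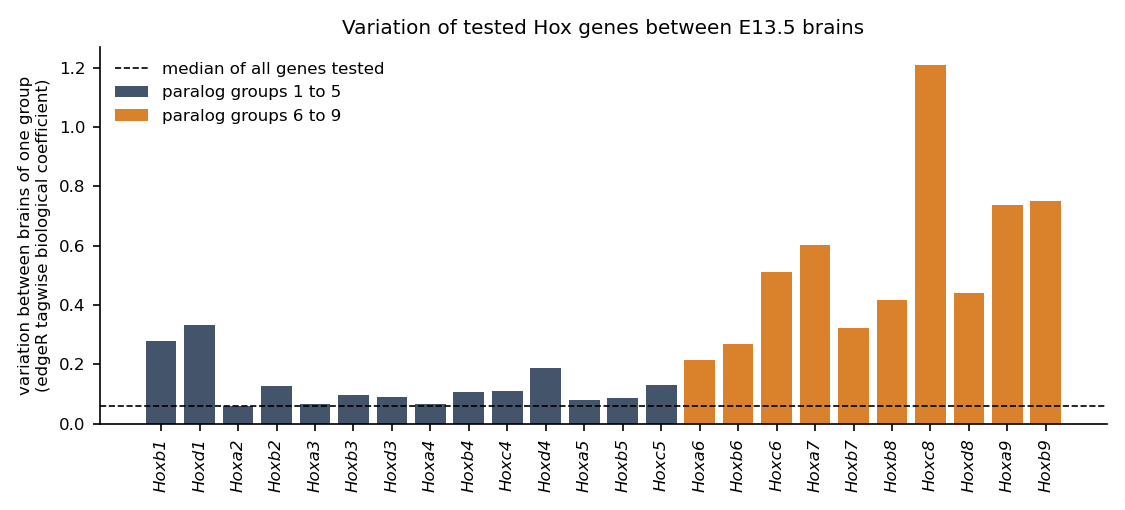
Tagwise biological coefficient of variation between E13.5 brains of the same sex and genotype for Hox genes that passed the filter on low counts, ordered by paralog group. The dashed line is the median of all genes tested, 0.0579; bars of groups 6 to 9 reach from 0.216 for Hoxa6 to 1.21 for Hoxc8.

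Genes of the same cluster did not move in fixed proportion. *Hoxb9* reads per *Hoxb5* read were 0.955, 0.267 and 0.699 in the male *Wiz+/+* brains, 0.118, 0.725 and 0.111 in the male *Wiz MommeD30/+* brains, 0.0574 and 1.57 in the female *Wiz+/+* brains and 0.549 and 0.469 in the female *Wiz MommeD30/+* brains. *Hoxb5* reads per *Hoxb3* read stayed between 1.52 and 2.07. In the Hoxc cluster, *Hoxc8* reads per *Hoxc6* read ran from 0.0156 to 1.14, and in the Hoxa cluster *Hoxa9* reads per *Hoxa5* read from 0.00148 to 0.0616. In each ratio computed of a group 8 or 9 gene to a gene nearer the front of its cluster, the second female *Wiz+/+* brain was highest, except for *Hoxb8* per *Hoxb5*, where it had 1.77 against 1.85 in the first male *Wiz+/+* brain.

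Marker lists for other tissues are given beside these values, and most reached an extreme in 1 of the female *Wiz+/+* brains. The 9 hindbrain genes, which were all detected, summed to between 75.5 and 104 CPM, and the first female *Wiz+/+* brain, lowest for Hox groups 6 to 9, was second highest at 99.5, while the second female *Wiz+/+* brain, highest for Hox groups 6 to 9, was highest at 104. The midbrain and isthmus list of 7 genes (82.1 to 137 CPM), the brainstem monoamine list of 6 (43.4 to 61.7 CPM) and the erythroid list of 9 (721 to 1410 CPM) were also highest in the second female *Wiz+/+* brain. The choroid plexus list of 9 genes was lowest there, at 319 CPM, and highest in the first female *Wiz+/+* brain, at 555 CPM. The 8 motor neuron and cholinergic genes summed to between 92.3 and 137 CPM and were highest in the first female *Wiz+/+* brain. *Mnx1*, 1 gene of that list, was highest in the second female *Wiz+/+* brain instead, at 0.932 CPM against 0.263 to 0.774 in the others. This was 41 counts against 36 in the second female *Wiz MommeD30/+* brain, a gap within counting error. The second female *Wiz+/+* brain also had the least of the forebrain list, 539 CPM against 779 to 945. The mesenchyme, sclerotome and muscle list of 15 genes summed to between 311 and 458 CPM. Apart from Hox genes no list of spinal cord genes was fixed. The part of carried-over cord tissue in the Hox values was not tested, and in whole brains fewer cells of a type cannot be told apart from less RNA per cell.

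**Figure D3:**
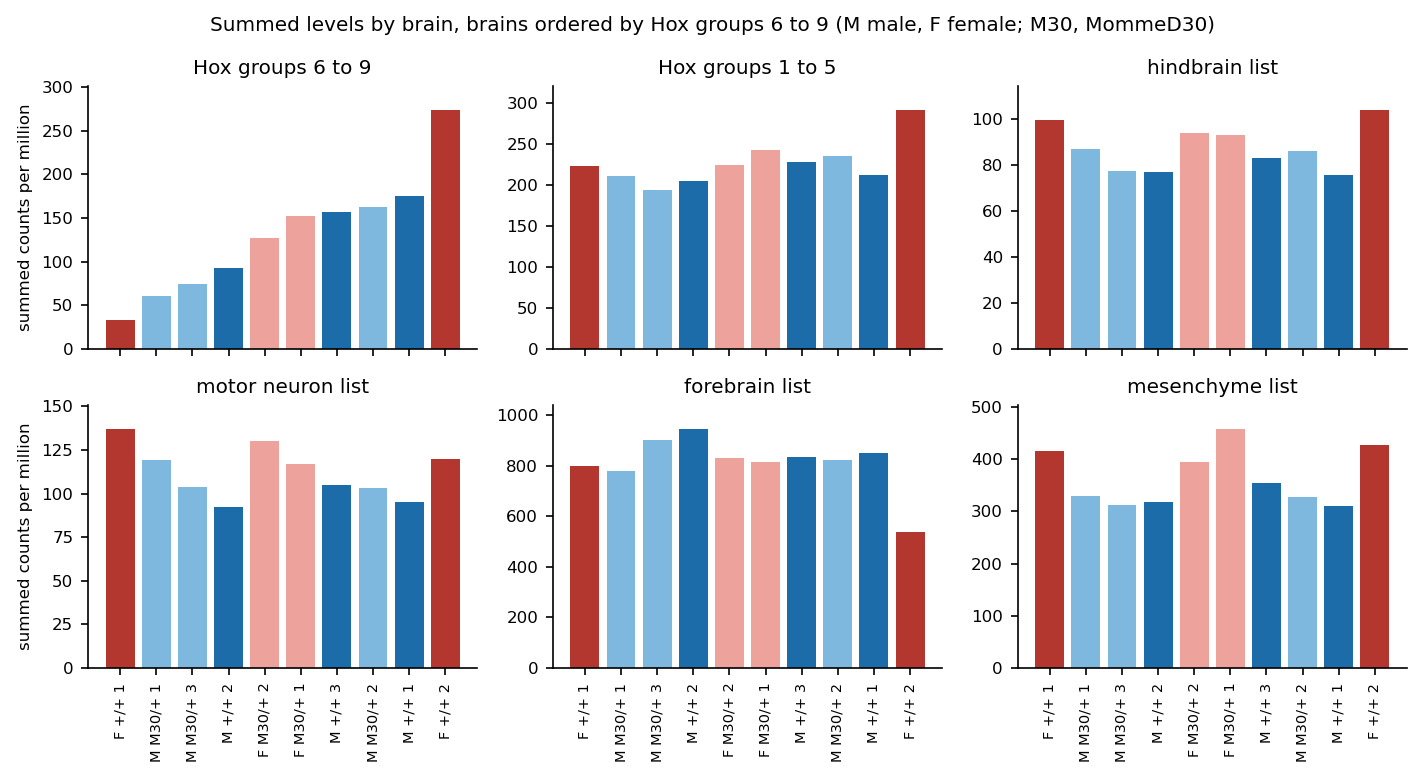
Summed CPM in each E13.5 brain for Hox groups 6 to 9, Hox groups 1 to 5 and 4 marker lists, with brains in the same order in every panel, from the lowest to the highest sum of Hox groups 6 to 9. That sum climbs from 32.8 to 274 CPM across the panel while the hindbrain list stays between 75.5 and 104 CPM, and the forebrain list is lowest, at 539 CPM, in the brain highest for Hox.

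The first comparison asked whether loss of a *Wiz* allele altered Hox expression in the male E13.5 brain. No Hox gene passed the threshold of an adjusted p of at most 0.05 with a fold change under 0.7 or over 1.3. All differences are given as *Wiz MommeD30/+* over *Wiz+/+* and tested by quasi-likelihood in edgeR, with p-values adjusted by Benjamini and Hochberg's method over all genes. The labels of the libraries carry replicate numbers only, and the study calls them biological replicates. The p-values set the difference between genotypes against the spread between libraries of a group. Of the 24 Hox genes tested, 0 passed, where 0.184% of all genes did (0.166% lower and 0.0178% higher), 3 had an unadjusted p under 0.05 (1423 of all 16848 genes did), and DESeq2's Wald test also called 0, with 1 under 0.05. The 3 genes were *Hoxa9*, *Hoxc8* and *Hoxc6*.

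*Hoxa9* had a log2 fold change of -1.83 (SE 0.557, adjusted p = 0.366), with 1.09, 0.183 and 0.756 CPM in the *Wiz+/+* and 0.124, 0.464 and 0.0585 CPM in the *Wiz MommeD30/+* brains. *Hoxc8* had -2.63 (SE 0.917, adjusted p = 0.473). *Hoxc6* had -1.14 (SE 0.451, adjusted p = 0.526), with 10.7, 4.52 and 7.94 CPM against 1.51, 7.69 and 1.87 CPM. In each of these genes the second *Wiz MommeD30/+* brain lay within the range of the *Wiz+/+* brains. Without that brain the log2 fold changes were -3.05 for *Hoxa9*, -7.11 for *Hoxc8* and -2.29 for *Hoxc6*, without the first *Wiz+/+* brain that of *Hoxc8* was -1.02, and without the first *Wiz MommeD30/+* brain that of *Hoxc6* was -0.75. Without the second *Wiz MommeD30/+* brain, 4 genes passed, all lower in *Wiz MommeD30/+*: *Hoxb8*, *Hoxb9*, *Hoxc6* and *Hoxd8*. In that fit 26 of all 16955 genes passed. Without the filter on low counts 5 passed, all lower: *Hoxa7*, *Hoxa9*, *Hoxb9*, *Hoxc6* and *Hoxc8*. There 175 of all 25431 genes passed, against 31 of 16848 with the filter. Across the 24 genes the median log2 fold change was -0.08, against 6.07e-05 over all genes tested, and 18 were negative.

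**Figure D4:**
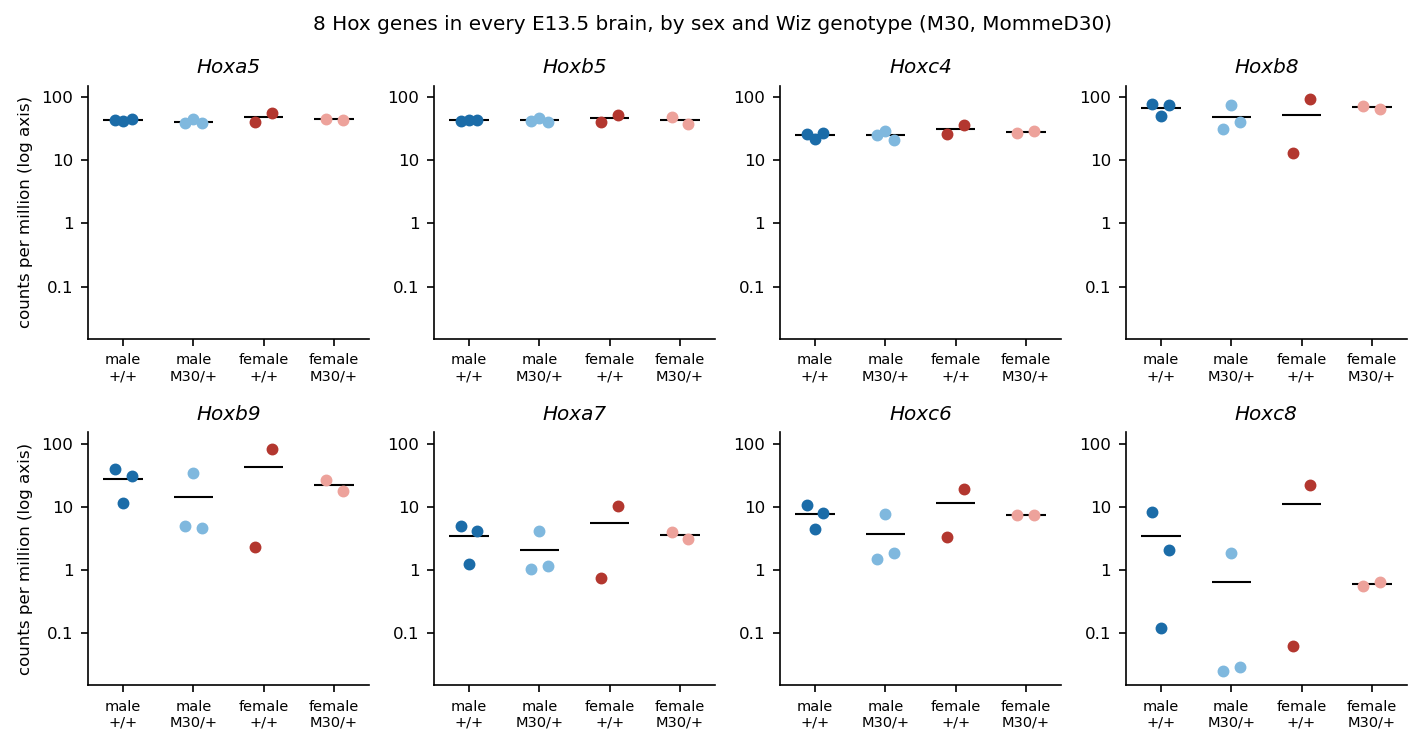
CPM, on a log axis, of 8 Hox genes in every E13.5 brain by sex and Wiz genotype, with a line at each group mean. Hoxa5, Hoxb5 and Hoxc4 differ little between brains, and the groups overlap; for Hoxb8, Hoxb9, Hoxa7, Hoxc6 and Hoxc8 the 2 female Wiz+/+ brains lie far apart, on either side of the female Wiz MommeD30/+ brains.

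In the female brains 0 of 25 Hox genes passed by the same test, against 0.111% of all genes, 3 had an unadjusted p under 0.05 (1098 of all 17152 genes did), and DESeq2's Wald test called 0, with 2 under 0.05. *Hoxa4* had a log2 fold change of -0.35 (SE 0.0976, adjusted p = 0.773), from 14 and 14.7 CPM in the *Wiz+/+* to 11.7 and 10.8 CPM in the *Wiz MommeD30/+* brains. *Hoxa3* had -0.31 (SE 0.0973, adjusted p = 0.773), from 20.4 and 22.6 to 18.4 and 16.3 CPM. For both, the 2 genotypes did not overlap, but the genes were picked by smallest p. How many of all genes separate in this way was not counted. *Hoxc8* had -4.20 (SE 1.6, adjusted p = 0.773), and here the *Wiz+/+* brains lay on either side of the *Wiz MommeD30/+* brains.

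The female result for groups 6 to 9 turned on which *Wiz+/+* brain was used. Without the first, *Hoxc8* had a log2 fold change of -5.20, all 26 Hox genes tested were negative and their median was -0.36. Without the second, that of *Hoxc8* was 3.18, 3 of 25 Hox genes were negative and the median was 0.32. These fits assume that the lone *Wiz+/+* brain varies like the other group. *Hoxa3* and *Hoxa4* kept a negative log2 fold change, between -0.40 and -0.23, whichever of the 4 female brains was left out, and did not pass in any of these fits.

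When the 10 brains were fitted together with sex as a covariate, 0 of 25 Hox genes passed, against 0.352% of all genes (0.254% lower and 0.0981% higher), with 2 at an unadjusted p under 0.05 in edgeR (2073 of all 17332 genes) and 2 in DESeq2's Wald test, which called 0. *Hoxc8* had a log2 fold change of -3.35 (SE 1.06, adjusted p = 0.237), *Hoxa9* -2.18 (SE 0.737, adjusted p = 0.272) and *Hoxa3* -0.15 (SE 0.0704, adjusted p = 0.435). Of the 25 genes 20 were negative, with a median of -0.09. Without the second female *Wiz+/+* brain 12 of 24 were negative, the median was 0.01, and *Hoxc8* stood at -1.78, *Hoxa9* at -1.01 and *Hoxa3* at -0.10. Without the first, 2 genes passed, both lower: *Hoxa9* at -2.71 and *Hoxc8* at -3.85. In that fit 59 of all 17446 genes passed. With no filter on low counts *Hoxc8* and *Hoxc9* passed, both lower, where 101 of all 26461 genes did. Adding the hindbrain list as a further covariate left the count at 0.

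A genotype by sex term was fitted to ask whether the sexes differed in their response. It reached an adjusted p of at most 0.05 for 0 of 17620 genes in edgeR's quasi-likelihood test, with 2 Hox genes at an unadjusted p under 0.05. These were *Hoxa4*, whose term was -0.40 on the log2 scale (SE 0.129, adjusted p = 0.985), and *Hoxa3*, at -0.29 (SE 0.123, adjusted p = 0.985).

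The partners and regulators of Hox proteins gave no call for genotype in brain either. Of the 9 cofactors of the Pbx, Meis and Pknox families, which bind DNA together with Hox proteins, 9 were tested and 0 passed in male brains, female brains or all brains. The counts were 0 of 16 tested for the upstream regulators (21 listed, among them retinoic acid enzymes and receptors and the Cdx genes) and 0 of 23 for Polycomb and trithorax genes. At an unadjusted p under 0.05 they numbered 1, 5 and 2 in male brain, 0, 2 and 3 in female brain, and 2, 3 and 3 in all brains, where the counts over all genes were 1423 of 16848, 1098 of 17152 and 2073 of 17332. Of the 44 other genes that lie between the outermost Hox genes of a cluster, 11 had more than 3 counts in all 10 brains and 25 had none in any library. Among those tested, 11 in male and 12 in female brain, 0 passed. All 6 microRNA genes of the clusters in the count tables had no count, in libraries of polyA RNA. *Hoxaas2*, a noncoding transcript between *Hoxa2* and *Hoxa3* on the other strand, ran from 6.77 to 11.2 CPM over the brains, and *Haglr*, which starts beside *Hoxd1* on the other strand, from 6.38 to 9.45 CPM. 

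The sexes were then compared at E13.5 with genotype as a covariate, the 4 female brains over the 6 male brains. The study describes the male brains first and compared genotypes within each sex. Whether the sexes were dissected and sequenced together is not given in the sources used here. Sex therefore cannot be told apart from any such difference in handling. Again 0 of 25 Hox genes passed both limits in edgeR's quasi-likelihood test, against 1.43% of all genes (0.762% lower and 0.669% higher), but all 25 had a positive log2 fold change, with a median of 0.24 against 0.00432 over all genes, and 9 had an unadjusted p under 0.05, as did 4892 of all 17332 genes (9 Hox genes also in DESeq2's Wald test, which called 0). Genes of groups 1 to 4 led the list. *Hoxa2* had 0.33 (SE 0.0591, adjusted p = 0.00768), a fold change of 1.26. *Hoxd3*, a gene of the caudal hindbrain, had 0.33 (SE 0.0884, adjusted p = 0.0318), with 9.43 to 12.5 CPM in the male and 12.4 to 15.3 CPM in the female brains, which just overlapped. *Hoxa3* had 0.22 (SE 0.071, adjusted p = 0.0611). By adjusted p alone *Hoxa2* and *Hoxd3* passed, where 1968 of all 17332 genes did. The fold changes of these 2 Hox genes stayed inside the limit of 1.3.

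The shift over the Hox genes as a set depended on the second female *Wiz+/+* brain. Without it, 12 of 24 Hox genes were negative, their median was 0.01 on the log2 scale, and 4 had an unadjusted p under 0.05. Without any 1 of the other brains, 0 to 5 were negative and the median ran from 0.20 to 0.34. Whichever of the 10 brains was left out, *Hoxa2* had 0.29 to 0.37, *Hoxd3* 0.24 to 0.38 and *Hoxa3* 0.16 to 0.28. These genes were picked by smallest p. Without the first male *Wiz MommeD30/+* brain *Hoxd3* passed, where 267 of all 17376 genes did. Without the first female *Wiz+/+* brain *Hoxb2* passed, where 151 of all 17446 genes did. Other lists moved with sex: 5 of 8 motor neuron genes were higher in female brains, led by *Lhx3* at a log2 fold change of 0.78 (SE 0.0835, adjusted p = 3.58e-04), while 2 of the 12 forebrain genes were lower, among them *Tbr1* (-0.65, SE 0.168, adjusted p = 0.0289). Of the 9 hindbrain genes *Phox2a* was higher (0.45, SE 0.124, adjusted p = 0.0361). Of the mesenchyme list 2 of 15 were higher, *Col1a1* and *Col1a2*, and of the erythroid list 4 of 9. One upstream regulator passed, *Aldh1a2*, which makes retinoic acid in mesoderm and meninges, at 0.44 (SE 0.118, adjusted p = 0.0335). The summed hindbrain list was 93.1 to 104 CPM in the female brains and 75.5 to 87.2 CPM in the male brains, with no overlap, and the mesenchyme list 394 to 458 CPM against 311 to 355 CPM. The part of these differences in the Hox values was not tested.

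In the adult cerebellum, a tissue of the anterior hindbrain that forms ahead of the domains of Hox genes, the clusters were nearly silent. All 39 genes together had 34, 23 and 49 counts in the *Wiz+/+* and 11, 29 and 12 counts in the *Wiz MommeD30/+* cerebellums, where the brains had 4885 to 24931. As a share, this was 1.11 CPM (exact 95% interval 0.77 to 1.55), 0.776 (0.492 to 1.17) and 1.6 (1.18 to 2.11) in *Wiz+/+*, and 0.388 (0.194 to 0.694), 0.984 (0.659 to 1.41) and 0.389 (0.201 to 0.679) in *Wiz MommeD30/+*. The first and the third *Wiz MommeD30/+* cerebellums were lowest, but the second exceeded the second *Wiz+/+* cerebellum, so the genotypes overlapped. These intervals, like all those of counts below, cover counting error only.

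None of the 39 genes reached the filter on low counts in the cerebellums, so no test was made there, where 0.832% of all genes passed (0.300% lower and 0.532% higher). With no filter 19 Hox genes could be tested by edgeR and 0 passed, where 211 of all 24051 genes did. Among the Hox genes 1 had an unadjusted p under 0.05. Of these 19, 15 had a negative log2 fold change, with a median of -1.1, at counts near 0. The median over all genes that passed the filter was -0.00311. The traces that were found came from the anterior end of the clusters: 8 of the 15 genes of groups 1 to 5 had more than 3 counts in some cerebellum, and 0 of the 12 of groups 6 to 9. *Hoxb3* had 6, 4 and 6 counts in the *Wiz+/+* and 0, 3 and 1 in the *Wiz MommeD30/+* cerebellums, *Hoxa3* 7, 0 and 8 against 0, 5 and 1, and *Hoxa2* 7, 1 and 6 against 2, 3 and 0. For *Hoxb3* the *Wiz+/+* cerebellums lay above the others, by 4 counts against 3 at the nearest, while for *Hoxa3* and *Hoxa2* the genotypes overlapped. These genes were picked after their values were seen, and how many of all genes separate was not counted. Per kilobase the 5 highest genes in the *Wiz+/+* cerebellums were *Hoxa2* at 0.0861 ± 0.0588 RPKM (SD, n = 3), *Hoxa4* at 0.0551 ± 0.0423, *Hoxa5* at 0.0528 ± 0.0347, *Hoxb3* at 0.0413 ± 0.00828 and *Hoxc4* at 0.0302 ± 0.0272. Their order is within the spread. In the *Wiz+/+* male brains the 5 highest were *Hoxb8* at 25.7 ± 5.54 RPKM, *Hoxa5* at 23 ± 0.901, *Hoxb5* at 15.3 ± 0.358, *Hoxb9* at 10.6 ± 5.58 and *Hoxb6* at 9.65 ± 1.58.

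Tissue and age were compared in *Wiz+/+* males, the adult cerebellum over the E13.5 whole brain, and cannot be told apart. Of the 39 Hox genes 22 passed the filter and all 22 were lower in cerebellum by edgeR's quasi-likelihood test, against 32.9% of all genes (69.3% passed in either direction and 36.4% were higher). A gene high in brain alone passes this filter, so the count carries no weight of its own, and the other 17 genes had few or no reads in either tissue. Of the 22, 7 had no count in any *Wiz+/+* cerebellum, 5 had 1 to 3 in all and 10 had more. With genes at 0 set at their bound, the median fold was 183.

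Among genes with counts in both tissues, those of group 5 had the highest ratios of brain to cerebellum. *Hoxb5* had 2097, 705 and 1494 counts in the *Wiz+/+* male brains and 3, 1 and 1 in the *Wiz+/+* cerebellums (log2 fold change -9.29, SE 0.15, adjusted p = 6.11e-17), and *Hoxa5* had 2204, 675 and 1527 against 1, 3 and 5 (-8.51, SE 0.154, adjusted p = 2.09e-16). *Hoxc5* had 1487 counts in the 3 brains together and 2 in the 3 cerebellums, a ratio of library shares of 667 (exact 95% interval 184 to 5520). In group 4, *Hoxc4* had a log2 fold change of -8.07 (SE 0.234, adjusted p = 4.53e-14), *Hoxb4* -7.55 (SE 0.252, adjusted p = 2.57e-13) and *Hoxa4* -6.65 (SE 0.222, adjusted p = 2.61e-13). In group 3, *Hoxb3* had -6.86 (SE 0.164, adjusted p = 4.59e-15), *Hoxd3* -7.21 (SE 0.245, adjusted p = 3.22e-13) and *Hoxa3* -6.41 (SE 0.231, adjusted p = 6.58e-13). *Hoxa2* of group 2 had -5.73 (SE 0.227, adjusted p = 2.08e-12). With few counts in cerebellum, the standard errors of these Hox genes are smaller than counting error allows. Their adjusted p-values come from the same fits and are too small as well. These genes passed the filter through their brain counts, so the p-values carry no weight of their own. The exact intervals of the ratios are wider, for example 330 to 2380 for *Hoxb5* and 231 to 962 for *Hoxa5*.

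Over the groups the ratio of pooled shares, brain over cerebellum, climbed in the Hoxa cluster from 63.2 for *Hoxa2* (exact 95% interval 37.5 to 116) to 100 for *Hoxa3* (60.7 to 180), 120 for *Hoxa4* (60.6 to 278) and 439 for *Hoxa5* (231 to 962). In the Hoxb cluster it was 105 for *Hoxb2* (35.6 to 512), 139 for *Hoxb3* (85.2 to 243), 236 for *Hoxb4* (91.9 to 868) and 771 for *Hoxb5* (330 to 2380). Neighbours in these series overlapped within their intervals. From group 6 on the cerebellum counts were 0 for most genes. Against a floor of 3 counts over the 3 cerebellums, *Hoxb8* was at least 2180-fold higher in brain, *Hoxb9* at least 968-fold, *Hoxb6* at least 592-fold, *Hoxc6* at least 266-fold, *Hoxb7* at least 232-fold, *Hoxa6* at least 142-fold and *Hoxa9* at least 25.1-fold. *Hoxc8* was at least 145-fold higher, with 412, 2 and 72 counts in the 3 brains, and at least 44.1-fold higher without the first of them. *Hoxd4* of group 4 was at least 107-fold higher. *Hoxa7* had 2 counts against 410 in brain, a ratio of 184 (50.6 to 1520) that lay below that of *Hoxa5*. *Hoxd8* had 3 counts against 130 in brain, a ratio of 38.9 (13 to 191), and *Hoxc9* 3 against 9, a ratio of 2.69 whose interval, 0.672 to 15.5, includes no difference.

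**Figure D5:**
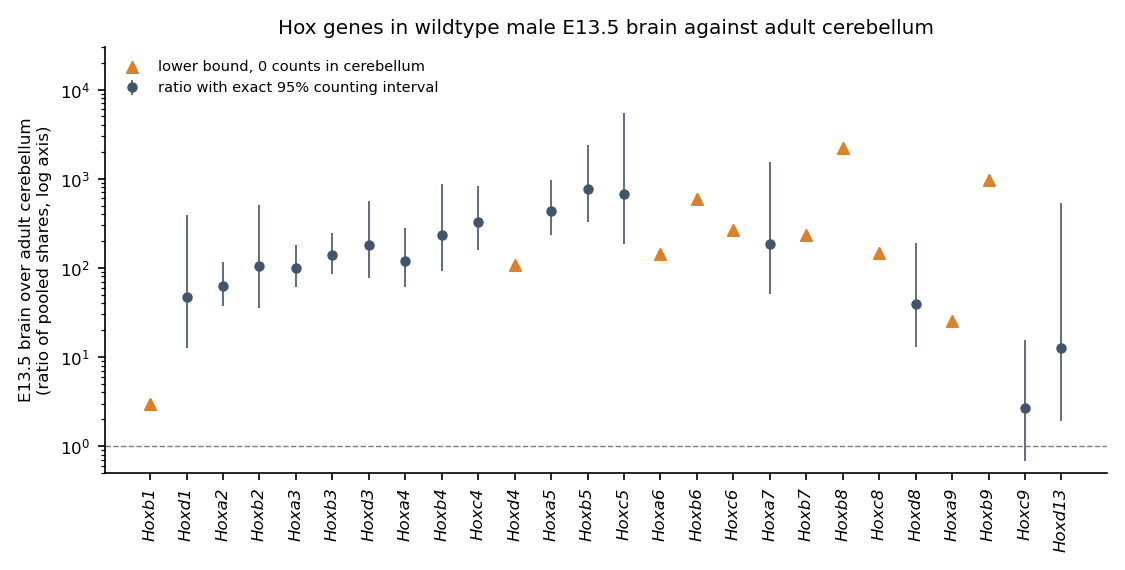
Ratio of pooled library shares, Wiz+/+ male E13.5 brains over Wiz+/+ adult cerebellums, for the Hox genes with more than 3 counts in those brains, on a log axis; circles carry exact 95% counting intervals and triangles are lower bounds for genes with no count in cerebellum. In the Hoxa cluster the ratio climbs from 63.2 for Hoxa2 to 439 for Hoxa5, and Hoxb8 has the highest bound, 2180.

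Of the 44 other genes of the clusters 10 passed the filter and were tested, and all 10 were lower in cerebellum, against 32.9% of all genes. As for the Hox genes, those high in brain alone pass this filter, so the count carries no weight of its own. The standard errors and adjusted p-values of *Haglr* and *Hoxaas2*, with few counts in cerebellum, are too small in the same way. *Haglr* had a log2 fold change of -7.41 (SE 0.341, adjusted p = 1.30e-11) and *Hoxaas2* -5.18 (SE 0.219, adjusted p = 4.77e-12). The smallest fall was that of *Hotairm1*, an antisense transcript at the anterior end of the Hoxa cluster, at -1.96 (SE 0.306, adjusted p = 2.47e-05), with 0.971, 1.04 and 1.31 CPM in the brains and 0.131, 0.304 and 0.293 CPM in the cerebellums. Of the cofactors 6 of 9 were lower and 0 higher, among them *Pbx3* at -2.50 (SE 0.0421, adjusted p = 9.58e-17) and *Meis2* at -5.82 (SE 0.149, adjusted p = 1.07e-14). Of the upstream regulators 8 were lower and 3 higher among 16 tested. *Aldh1a1*, a retinaldehyde dehydrogenase, rose by 5.61 (SE 0.0952, adjusted p = 1.03e-16), while *Crabp1*, which binds retinoic acid in the cytoplasm, was lower at 1 count in the 3 cerebellums against 3001 in the 3 brains. Of the Polycomb and trithorax genes 10 were lower and 5 higher among 23. *Ezh2*, the H3K27 methyltransferase of dividing cells, was lower at -3.63 (SE 0.0519, adjusted p = 1.86e-17), and the subunits *Cbx7* at 3.90 (SE 0.0607, adjusted p = 4.31e-17) and *Ezh1* at 2.07 (SE 0.0423, adjusted p = 8.05e-16) were higher.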

How the data were processed

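PolyA RNA from whole E13.5 brains and adult cerebellums was sequenced as 100-base single-end reads from TruSeq libraries. The submitters' processing notes and the study's methods name TopHat2 2.0.11, the mm10 build (GRCm38) and HTSeq 0.6.1. The authors deposited unnormalized counts of reads for each Ensembl gene, 1 file per library; the strand and overlap settings of counting are not given in the sources used here. The kit name does not settle whether strand was kept, so reads of overlapping antisense genes may be mixed. The ChIP-seq samples were not analysed here, and a few genes counted in the totals of the lists are not reported by name or drawn.

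Of the identifiers, 40340 were found in GENCODE M21 and the other 1048 held at most 0.17% of a library. CPM used total counts. RPKM divided CPM by the union of exons in kilobases. Fits used edgeR 4.0.16 (R 4.3.3) on the samples of each comparison alone (TMM scaling, filterByExpr with a minimum count of 10, quasi-likelihood test, Benjamini-Hochberg adjustment over all genes tested); the threshold of an adjusted p of at most 0.05 with a fold change under 0.7 or over 1.3 is that of the study. DESeq2 1.42.0 served as an alternative. A standard error is the log2 fold change divided by the square root of F, which is too small for Hox genes near 0 in cerebellum. The tissue p-values of those genes rest on the same F and are too small as well. Ratios of pooled counts carry exact (Clopper-Pearson) 95% intervals from scipy 1.17.1, and a count of 0 was bounded by 3 counts. The fits were tested on simulated counts in which 200 genes were changed. In female brain 78% of 2-fold and 94% of 4-fold changes were recovered, with 7.5% of calls false. In male brain these values were 94%, 99% and 5.4%, and in all brains 88%, 95% and 1.6%. The changed genes were drawn from all genes tested, so recovery among the more variable Hox groups 6 to 9 was not measured. The Hox genes and all other lists were chosen with earlier results of these data known, and leaving out each brain in the measure of spread, the spread of groups 6 to 9 alone, the longest transcript as length and leaving out each brain in the lower bounds were added after the data were seen. Genes named with full statistics are, in each comparison, up to 10 past the threshold by smallest p, or the 3 of smallest p where fewer than 3 pass, with the 5 highest per kilobase in each tissue and up to 3 of each other list. The remaining Hox genes are described by level, and the values of *Hoxb3*, *Hoxa3* and *Hoxa2* by cerebellum, the ratios within clusters, the promoters printed and *Mnx1*, *Haglr*, *Hoxaas2* and *Hotairm1* were picked after their values were seen. A prior count of 2 was used for the hindbrain covariate.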

Additional observations from a re-analysis of the deposited data

How the results depend on the processing

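Numbers of Hox genes past the threshold are given first. For genotype in male brain the number was 0, and 5 without the low-count filter; leaving out each brain gave 0 to 4. In female brain it was 0, and 0 to 7 when a brain was left out. Over all brains it was 0, and 2 without the filter; leaving out brains gave 0 to 2. For sex it was 0, and 2 by adjusted p alone; leaving out brains gave 0 to 1. In cerebellum it was 0 under every alternative run, and for tissue it was 22, between 20 and 26 under all alternatives. The log2 fold change of *Hoxc8* in female brain was reversed, to 3.18, without the second *Wiz+/+* brain and was -5.20 without the first. The median spread of Hox genes was 0.186, 0.267 as a coefficient of variation of CPM, and 0.118 to 0.196 when a brain was left out. Of 314 alternatives for named genes and the order of levels, 302 kept direction and side of the threshold, 11 newly passed and 1 reversed. Many of the 302 belong to the tissue comparison, whose large fold changes left little room to change side. The 302 also cover wide swings, such as that of *Hoxc8* in male brain from -7.11 to -1.02 when a brain was left out. Scaling by total counts moved the median gene of the tissue comparison by -0.21 on the log2 scale and no Hox call. With the replicate number as a block the number of Hox genes past the threshold was 0 in each genotype and sex comparison and 24 for tissue, and over all genes 23 in male brain, 3 in female brain, 46 in all brains and 52 for sex. For libraries with the same number, correlations of residuals ran from -0.16 to -0.0642 in male brain and -0.0847 to -0.022 in cerebellum. They ran from -0.00687 to 0.00846 between tissues, and the value was -0.0646 in female brain. For unlike numbers they reached 0.0985 in male brain, 0.101 in cerebellum, 0.0159 between tissues and 0.0646 in female brain. The numbers were not taken to pair samples. Residuals of a group sum to 0, which alone makes the female values opposite, so this check is weak and cannot exclude pairing. Over all genes the number called for genotype was 31 in male brain (20 to 175 under the alternatives), 19 in female brain (0 to 261), 61 in all brains (42 to 101) and 133 in cerebellum (70 to 839), and for sex it was 248 (52 to 1968).

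With 2 or 3 libraries a group, 1 brain could decide a value for Hox groups 6 to 9, and calls also moved with the filter: *Hoxc8* in male brain had an adjusted p of 0.473 with it and 2.70e-05 without it, at nearly the same log2 fold change (-2.63), and 2.7e-05 to 0.999 over all alternatives. In the cerebellums no Hox gene had more than 8 counts in a library and none passed the filter. Of the lower bounds on the tissue ratio, that of *Hoxc8* alone moved by over 1.5 times when a brain was left out. Tissue, age and the dissection of the brain cannot be separated in this design.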
